A study of Mus musculus with 4 samples.

Results

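The Sult1c2 positive mid-crypt epithelial cells of the mouse mid-colon are epithelial cells that carry transcripts of Sult1c2, a cytosolic sulfotransferase, without the transcripts that mark stem, cycling, goblet or surface cells. They were picked cell by cell from raw counts of unique molecular identifiers (UMIs, each standing for 1 captured transcript). A barcode first needed at least 500 UMIs, 250 genes and no more than 25% mitochondrial UMIs. Membership then required at least 2 UMIs of Epcam and of Sult1c2 and none of the leukocyte gene Ptprc. Further limits were fewer than 3 UMIs of the surface gene Aqp8, of Ly6g with Il1rn and of Ifit1 with Ifit2, fewer than 2 of the stem cell genes Lgr5 with Ascl2, fewer than 4 of the cycling genes Mki67, Top2a, Ube2c and Birc5 together, and under 2% of UMIs from 7 goblet genes. The rule returned 527 cells among 44356 that passed the quality limits, out of 49851 barcodes. Of 17428 epithelial cells (at least 2 Epcam UMIs and no Ptprc UMI), these 527 are the subject here.

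The DSS group comprised 7-week-old mice, free of specified pathogens, given 3% dextran sulfate sodium (DSS) in the drinking water over 2 days. The control group comprised mice of the same age and health status that drank clean water. Each group holds 2 droplet libraries of 3-prime transcript ends, named DSS 1, DSS 2, control 1 and control 2. Strain, sex and the number of animals behind a library were not stated in the labels. Nor do the labels say that libraries of a group came from separate animals, so the spread that p-values measure here is one between libraries and may be technical.

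Colonic crypts are renewed from stem cells at their base, whose progeny divide, move upward and mature into absorptive colonocytes before they are shed at the surface. Cells midway along this path have left the stem cell zone and have not yet taken on the full transport programme of the surface. Sulfotransferases such as Sult1c2 and Sult1a1 attach sulfate groups to phenols, steroids and drugs, and belong to the detoxifying enzymes of the intestinal lining. Gsdmc2 and Gsdmc3 encode gasdermins, proteins whose cleaved form can open pores in membranes, and Acsm3 encodes a mitochondrial enzyme that links medium-chain fatty acids to coenzyme A. DSS, a sulfated polymer of glucose, damages this lining when swallowed with the drinking water and is a common way to start colitis in mice.

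The 4 libraries held 101051573 to 109472082 UMIs, and 9321 to 12250 cells a library passed the quality limits. The Sult1c2 positive cells numbered 86 in DSS 1, 118 in DSS 2, 305 in control 1 and 18 in control 2, with summed UMIs of 2112552, 2474704, 5721091 and 361447. Control 2 therefore stood apart with few cells, and each result below rests on it for 1 of the 2 control values. The median depth of a member cell was 22596 UMIs in DSS 1, 17518 in DSS 2, 17212 in control 1 and 18546 in control 2. Pairs of libraries shared 36 to 52 barcodes, none of them among the members. Scrublet predicted 6, 10, 8 and 1 of the members as doublets in the same order of libraries. Immunoglobulin transcripts, which epithelial cells do not make, took a median 0.394% and 0.0630% of a member's UMIs in DSS 1 and DSS 2, against 0.0181% and 0.164% in control 1 and control 2. A total of 5 cells of DSS 1 and 2 of DSS 2, and none of the controls, held at least 2% immunoglobulin UMIs or at least 10 UMIs of the enteroendocrine granule genes Chga and Chgb. Results are given with and without these 7 cells where they differ.

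The genes that define the population were present in all 4 libraries. Levels are given as CPM, the UMIs of a gene summed over the members of a library and scaled to the same fixed total in each, without a length correction. Since the cells were chosen by Sult1c2, its level is a description: 137 and 139 CPM in DSS 1 and DSS 2, against 170.2 and 138 CPM in control 1 and control 2. Exactly 2 Sult1c2 UMIs were found in 36, 60, 147 and 9 members of DSS 1, DSS 2, control 1 and control 2, and the highest count was 13. Gsdmc2 stood at 728 and 440.1 CPM in DSS 1 and DSS 2, against 481 and 553 CPM in control 1 and control 2. Gsdmc3 was at 175 and 167 CPM in the DSS libraries and 141 and 227 CPM in the controls. Sult1a1 had 355 and 518 CPM in the DSS libraries and 753 and 573 CPM in the controls, and Acsm3 had 175 and 229.5 CPM in the DSS libraries and 214 and 246 CPM in the controls. In all 4 genes except Sult1a1 the groups overlapped, and for Sult1a1 both DSS libraries lay below both controls. Reads of Gsdmc2, Gsdmc3 and Gsdmc4 may be split between these near-identical genes, so their single levels are uncertain. None of the 4 markers other than Sult1c2 passed the test between DSS and control, and the widest difference was that of Sult1a1 (log2 fold change -0.63, SE 0.29, adjusted p = 0.816, edgeR).

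Just outside the limit of 2 Sult1c2 UMIs, cells with a single UMI that met every other condition numbered 72, 122, 287 and 72 in DSS 1, DSS 2, control 1 and control 2. In members with exactly 2 UMIs Gsdmc2 stood at 725 and 377 CPM in the DSS libraries and 431 and 558 CPM in the controls. In cells with 1 UMI it was 492 and 388 CPM in the DSS libraries and 373 and 324 CPM in the controls. Without a Sult1c2 UMI it was 107 and 177 CPM in the DSS libraries and 224 and 145 CPM in the controls. In every library Gsdmc2 was higher in cells with 1 Sult1c2 UMI than in cells with 0, and from 1 to 2 UMIs it was higher again in all but DSS 2. Sult1a1 had the same order in every library, for example 314 CPM at 2 UMIs, 256 CPM at 1 UMI and 46.9 CPM at 0 UMIs in DSS 1. Cells without a Sult1c2 UMI had median depths of 15390, 6320, 12215 and 7356 UMIs in DSS 1, DSS 2, control 1 and control 2. Those with 1 UMI had 20124.5, 14859.5, 15604 and 15244.5, and the part of depth in this order was not tested.

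Against the other non-goblet epithelial cells, 14832 in number, the leading genes of the Sult1c2 positive cells were ranked by the smallest ratio of CPM over the 4 libraries. This ranking describes cells picked for one of the genes and carries no test. Sult1c2 came first at 7.34- to 19.4-fold. B3gnt7, a glycosyltransferase gene, followed at 2.52- to 5.75-fold and Gsdmc2 at 2.34- to 3.37-fold. Gsdmc3, Sult1a1 and the glutathione transferase gene Gsta4 were also among the first 6, with smallest ratios of 2.27, 2.07 and 2.06. The cell cycle gene Ccnd2, the water channel gene Aqp4 and Slc5a8, which encodes a sodium-coupled carrier of short-chain fatty acids, completed the first 10 together with Tln2. Aqp4 positive cells with fewer than 2 Sult1c2 UMIs also held Aqp4 and Slc5a8, at somewhat lower levels in every library. Aqp4 had 1507, 1189, 1164 and 936 CPM in these cells of DSS 1, DSS 2, control 1 and control 2. In the Sult1c2 positive cells it had 1720, 1328, 1214 and 1118 CPM. Slc5a8 had 277, 306, 240 and 215 CPM, against 281, 337, 309 and 313 CPM in the Sult1c2 positive cells. Acsm3 was the only given marker outside the 15 leading genes.

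The label of mid-crypt cells was compared with populations on either side. Crypt base cells, which held at least 2 UMIs of Lgr5 and Ascl2 together and met the limits on injury, interferon, cycling and goblet genes, numbered 305 in control 1 and 153 in control 2. None was found in DSS 1 or DSS 2, which allows up to 0.173% and 0.0725% of their epithelial cells. Surface colonocytes with at least 3 Aqp8 UMIs under the same other limits numbered 112, 286, 1207 and 2438 in DSS 1, DSS 2, control 1 and control 2. A further comparison population, Aqp4 positive cells with fewer than 2 Sult1c2 UMIs, numbered 218, 345, 986 and 390.

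The summed level of 8 crypt base genes was 181 and 367 CPM in the Sult1c2 positive cells of DSS 1 and DSS 2 and 376 and 628 CPM in those of control 1 and control 2, against 2192 and 2863 CPM in the crypt base cells of control 1 and control 2. In surface colonocytes of these controls it was 86.5 and 77.9 CPM. The summed level of 9 colonocyte genes was 2490 and 2195 CPM in the Sult1c2 positive cells of the DSS libraries and 3019 and 2662 CPM in those of the controls. In surface colonocytes the colonocyte genes reached 20251 CPM or more in every library, and in crypt base cells they stood at 301 and 1075 CPM. On both scales the Sult1c2 positive cells lay between the base and the surface in each control library, where all populations could be compared. The rule kept the members under the limits on Lgr5 with Ascl2 and on Aqp8 that define the base and the surface populations, so this order was largely set by the choice of cells and is a description. In the Aqp4 cells low in Sult1c2, the crypt base genes summed to 494 and 660 CPM in the controls and 130 and 348 CPM in the DSS libraries. Their colonocyte genes summed to 8556 and 12784 CPM in the controls. In the controls the Aqp4 cells thus exceeded the Sult1c2 positive cells on both scales, which gave no single order of these populations. Sult1a1 had 753 and 573 CPM in the Sult1c2 positive cells of control 1 and control 2, against 377 and 269 CPM in crypt base cells and 57.0 and 22.6 CPM in surface colonocytes. Gsdmc2 followed the same course, with 61.5 and 93.0 CPM at the crypt base and 63.6 and 54.1 CPM at the surface of control 1 and control 2. In the Aqp4 cells of these controls Sult1a1 had 476 and 209 CPM and Gsdmc2 had 320 and 334 CPM. Krt20, a keratin of mature surface cells, had 62.4 and 149 CPM in the Sult1c2 positive cells and 1694 and 2494 CPM in surface colonocytes of the controls. Slc26a3, the chloride and bicarbonate exchanger of the surface, had 132 and 257 CPM, against 1324 and 1558 CPM in surface colonocytes. Acsm3 had 214 and 246 CPM in the Sult1c2 positive cells of the controls, 202 and 177 CPM in crypt base cells and 17.5 and 7.79 CPM in surface colonocytes. It was thus lower in surface colonocytes than in both other populations. Sult1a1, Gsdmc2, Krt20 and Slc26a3 were no part of those limits. However, Sult1a1 and Gsdmc2 are given markers of these cells, and Krt20 and Slc26a3 are surface genes like Aqp8. Their levels are therefore a description as well, and the place of the cells in the tissue was not measured.

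**Figure D1:**
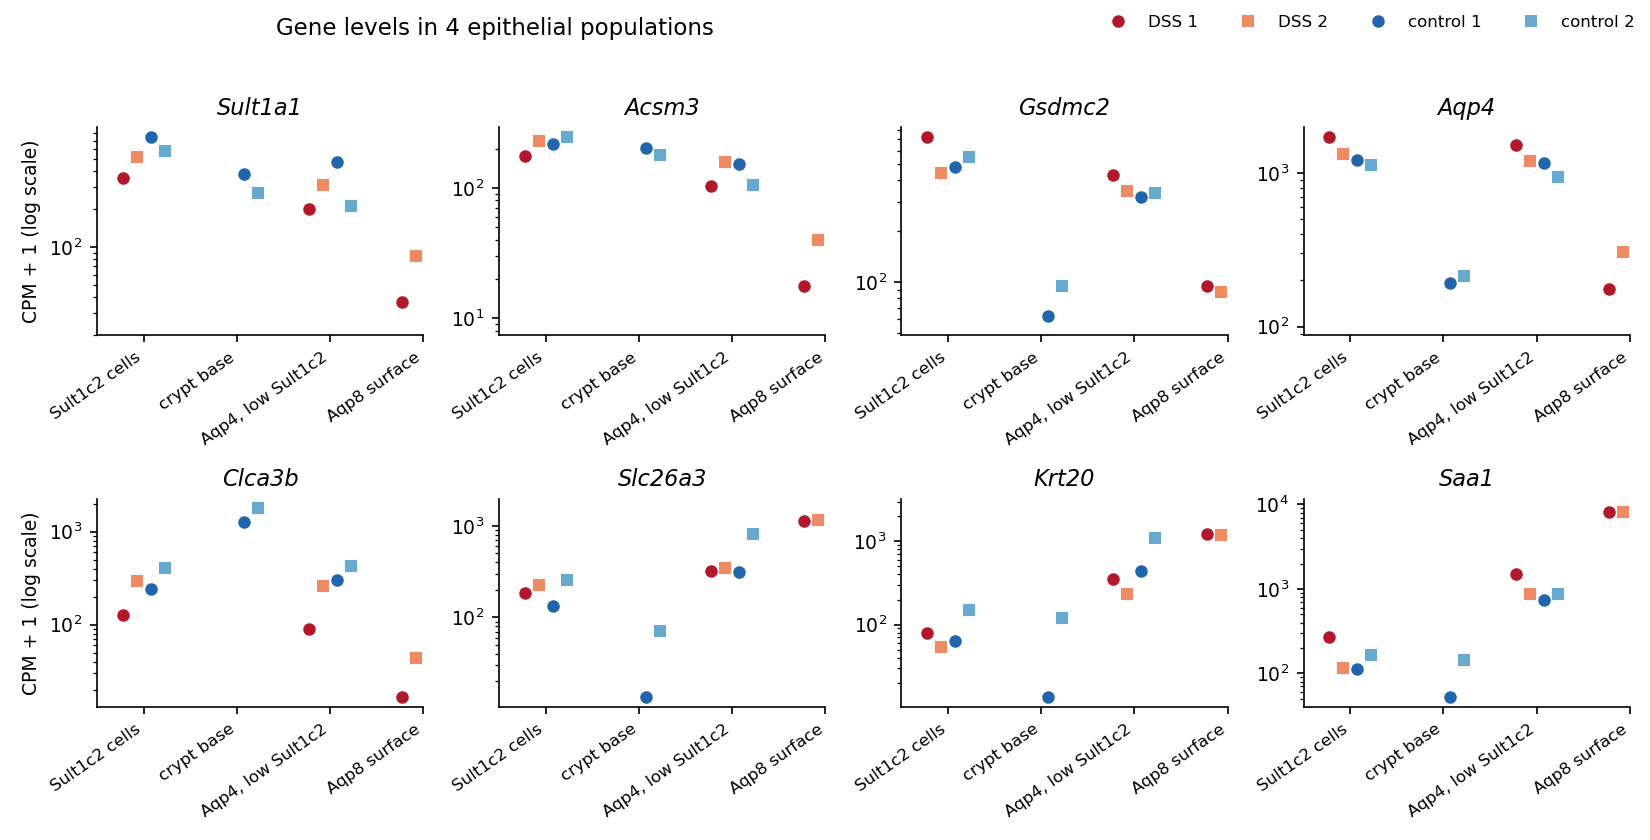
Levels of 8 genes along the crypt, in CPM + 1 on a log axis, for the Sult1c2 positive cells, crypt base cells, Aqp4 cells low in Sult1c2 and Aqp8 surface colonocytes, with 1 point per library. Sult1a1 and Gsdmc2 peak in the Sult1c2 positive cells, whereas Krt20 and Slc26a3 are highest in surface colonocytes and Clca3b in crypt base cells. The DSS libraries have no crypt base point. The axis ends before the control points of the surface colonocytes, so that only their DSS points are drawn.

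The share of Sult1c2 positive cells among epithelial cells varied more within the control group than between the groups. They made up 4.96% of epithelial cells in DSS 1 (exact binomial 95% interval 3.99% to 6.09%) and 2.85% in DSS 2 (2.37% to 3.41%). Their share was 5.56% in control 1 (4.97% to 6.20%) and 0.296% in control 2 (0.176% to 0.468%). The highest and the lowest share thus both belonged to controls. The mean was 3.91% ± 1.49 in DSS and 2.93% ± 3.72 in control (SD, n = 2 each). An exact two-sided permutation test gave p = 1, and 2 libraries against 2 cannot give a p below 0.33. The direction of the difference of 0.977 percentage points rested on single libraries: without control 2 the DSS mean was lower by 1.65 points, and without DSS 1 the difference was -0.0769 points. Intervals cover counting error only. Among all cells that passed the quality limits, the share was 0.714% in DSS 1, 0.963% in DSS 2, 3.27% in control 1 and 0.167% in control 2, so that fewer of these cells and fewer epithelial cells in the suspension cannot be told apart on that scale.

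The conditions of the rule removed unequal parts of the Sult1c2 positive epithelium. Of epithelial cells with at least 2 Sult1c2 UMIs, which numbered 161 in DSS 1, 363 in DSS 2, 603 in control 1 and 100 in control 2, the limit on Ly6g with Il1rn was met or exceeded by 32.9% and 50.4% in the DSS libraries and by 10.8% and 37.0% in the controls. Il1rn encodes the interleukin-1 receptor antagonist and Ly6g a surface protein known from neutrophils, and both serve in the rule as signs of an injury response. The limit on cycling genes was met or exceeded by 6, 63, 138 and 24 cells, that on goblet genes by 21, 40, 111 and 21 cells and that on Ifit1 with Ifit2 by 1, 12, 0 and 3 cells in the same order. The rule kept 53.4%, 32.5%, 50.6% and 18% of the cells. The DSS effect described below is therefore that of cells which stayed under these limits in both groups.

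Between DSS and control, edgeR called 15 genes higher and 12 lower of 10218 tested in the Sult1c2 positive cells at an adjusted p under 0.05, which is 0.264% of the genes tested (0.147% higher and 0.117% lower). At an unadjusted p under 0.05 there were 624 genes, and 16 of the 27 called genes also passed with DESeq2. The risers included the antibacterial lectin genes Reg3b and Reg3g, 4 genes of antigen presentation or interferon response (Cd74, Zbp1, Psmb8 and AW112010), the surface protein genes Ly6a, Ly6c1 and Ly6d, stress genes (Hspb1, Nupr1 and Trp53inp1), Vim and the immunoglobulin genes Iglc2 and Iglv2. The fallers included the Wnt target Axin2, Hopx, the water channel gene Aqp1, the co-receptor gene Nrp2 and Hells and Stmn1 of dividing cells. Over all genes tested, 5221 were higher in DSS, with a median log2 fold change of 0.01, and in 31% of genes the 2 groups did not overlap. For most called genes described below, lack of overlap was a condition of naming and carries no further support.

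Calls depended on which cells and libraries entered. With the 7 cells rich in immunoglobulin or chromogranin UMIs left out, an alternative chosen after seeing the data, 4 calls were made, namely those of Ly6a, Aqp1, Hopx and Nrp2. No gene passed without control 1 (733 at an unadjusted p under 0.05), with Sult1c2 required at 1 UMI (666) or without the limits on injury, interferon, surface, stem and cycling genes (863). The count was 11 without DSS 1, 50 without DSS 2, 13 without control 2 and 3 with Sult1c2 at 3 UMIs.

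**Figure D2:**
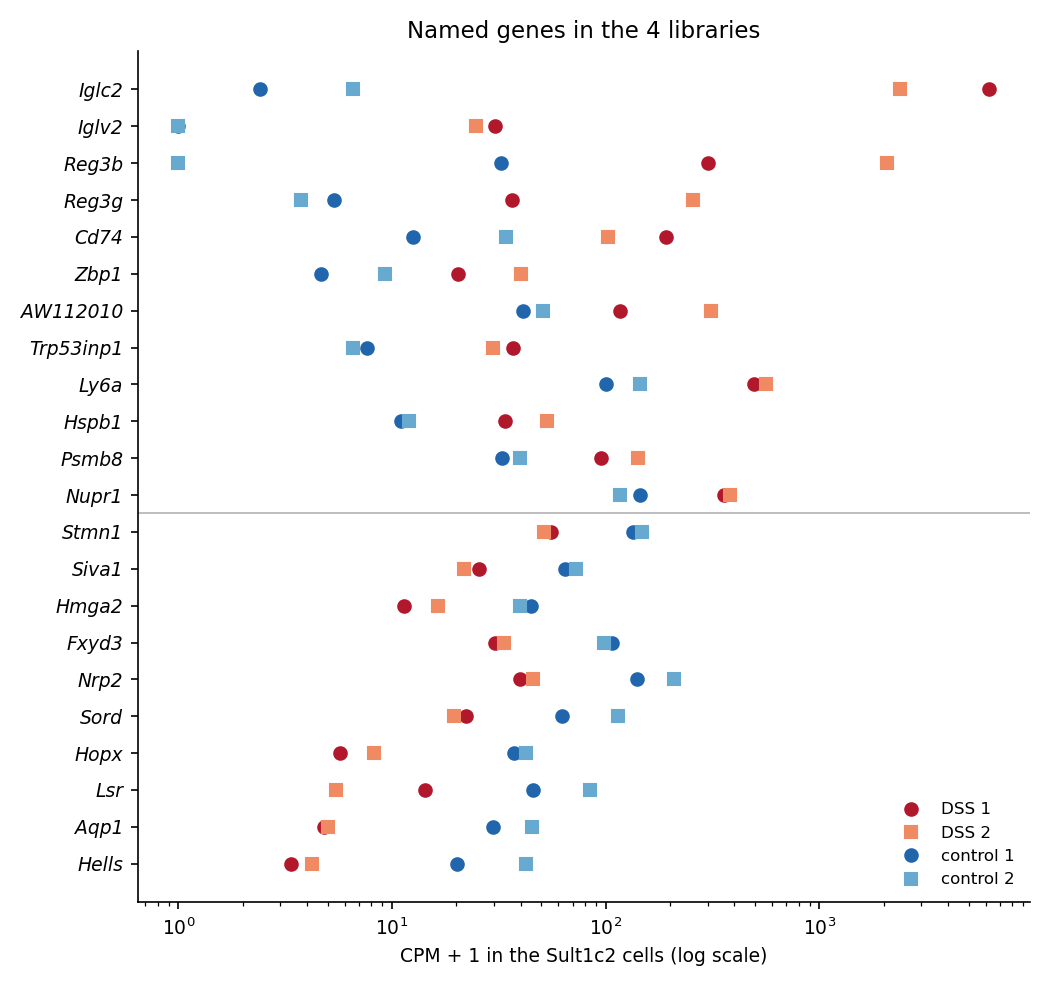
Level of each named gene in the Sult1c2 positive cells, in CPM + 1 on a log axis, with 1 point per library, DSS and control in separate colours. Genes above the grey line were called higher in DSS and those below it lower. For each of them both DSS points lie on one side of both control points, which was a condition for being named.

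Ly6a, the gene of the surface antigen Sca-1 known from regenerating intestinal epithelium, was the only riser whose call held without the 7 mixed cells (chromosome 15, 74994877 to 74998031, GRCm38). It stood at 495 and 559 CPM in DSS 1 and DSS 2, against 99.1 and 144 CPM in control 1 and control 2. Both DSS libraries lay far above both controls. The mean was 527 CPM ± 45.7 in DSS and 121 CPM ± 31.6 in control (SD, n = 2 each; log2 fold change 2.18, SE 0.26, adjusted p = 0.0115, edgeR). The call held in 11 of 16 alternatives, with log2 fold changes of 1.96 to 2.33, and among the libraries left out was lost without control 1 (adjusted p = 0.249, edgeR) and without DSS 1 (0.0896). In the cells, the rise was spread widely. Ly6a had a UMI in 94.2% of DSS 1 and 93.2% of DSS 2 members, against 60.0% of control 1 and 61.1% of control 2 members, with medians of 8, 9, 1 and 1 UMIs per cell.

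Thinned to 5000 UMIs per cell, the share of members with a Ly6a UMI was 69.8% and 73.7% in the DSS libraries and 28.9% and 33.3% in the controls. Immune cells (at least 1 Ptprc UMI and no Epcam UMI), many of which express Ly6a themselves, had shares of 26.7% and 40.1% in the DSS libraries and 20.8% and 30.9% in the controls at the same thinned depth. Their own median depths were 4121, 2810, 2787 and 1891 UMIs in DSS 1, DSS 2, control 1 and control 2, so that most immune cells were too shallow for the thinned share, whereas no member was. In control members the share lay close to that of the immune cells, and in DSS members it lay above it. Aqp8 surface colonocytes had higher shares than the members in every library, at 90.9% and 95.3% in the DSS libraries and 58.1% and 46.6% in the controls.

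Reg3b and Reg3g encode secreted lectins that act against bacteria, and both lie on chromosome 6. Reg3b (chromosome 6, 78370657 to 78373466) stood at 301 and 2061 CPM in DSS 1 and DSS 2, against 31.3 and 0 CPM in control 1 and control 2. DSS 2 was far higher than DSS 1, yet both exceeded both controls (log2 fold change 5.53, SE 0.88, adjusted p = 0.0376, edgeR). Reg3g stood at 35.5 and 255 CPM in DSS 1 and DSS 2, against 4.37 and 2.77 CPM in control 1 and control 2 (log2 fold change 4.99, SE 0.83, adjusted p = 0.0464, edgeR). Reads of these similar genes may be exchanged in counting. Unlike Ly6a, Reg3b was carried by a minority of cells. It had a UMI in 9 of 86 and 42 of 118 members of DSS 1 and DSS 2, against 5 of 305 and 0 of 18 members of control 1 and control 2. At least 10 UMIs were found in 6, 27, 2 and 0 cells, and the top 12 cells of DSS 2 held 83.9% of that library's Reg3b UMIs.

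At a thinned depth of 5000 UMIs, Reg3b was seen in 6.98% and 28.0% of members of the DSS libraries and in 0.984% and 0% of those of the controls, where 0 of 18 cells allows a share of up to 16.7%. In immune cells, which are not known to make this lectin, it was seen in 1.38% and 5.94% in the DSS libraries and in 0% and 0.909% in the controls, where 0 of 96 cells of control 1 allows up to 3.13%. Reg3b thus exceeded its level in immune cells in the members of both DSS libraries. Without control 2 the Reg3b call was lost (log2 fold change 5.10, adjusted p = 0.191, edgeR), as it was without control 1 (0.604) and without the 7 mixed cells (5.56, adjusted p = 0.0572). Across alternatives it held in 7 of 16 with log2 fold changes from 3.70 to 13.88, the highest of them against control 2 alone, which held no Reg3b UMI and where the fitted value depends on the prior count, and that of Reg3g in 8 of 15. In Aqp4 cells low in Sult1c2, tested on their own, both genes rose as well (log2 fold change 7.12, adjusted p = 0.00576 for Reg3b and 5.16, adjusted p = 0.0396 for Reg3g, edgeR).

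The promoters of the lectin pair and of the 3 most stable fallers are shown as RefSeq sequences of GRCm38.p6, from 250 bases before to 50 bases after the transcript start, 5′ to 3′ on the gene's strand. Capitals mark the letters TTCNNNGAA, the core of sites bound by STAT factors, in Reg3b, and CTTTGAT, the core of sites bound by TCF and LEF factors of the Wnt pathway, in Reg3g and Nrp2. Aqp1 and Hopx held none of the letters searched.
Reg3b (chr6:78370635-78370934, plus strand): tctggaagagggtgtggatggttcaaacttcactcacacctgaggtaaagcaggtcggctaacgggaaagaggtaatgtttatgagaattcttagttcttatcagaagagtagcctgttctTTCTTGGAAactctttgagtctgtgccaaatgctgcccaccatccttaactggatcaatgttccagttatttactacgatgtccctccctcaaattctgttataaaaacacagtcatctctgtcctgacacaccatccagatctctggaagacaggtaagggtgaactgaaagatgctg
Reg3g (chr6:78468825-78469124, minus strand): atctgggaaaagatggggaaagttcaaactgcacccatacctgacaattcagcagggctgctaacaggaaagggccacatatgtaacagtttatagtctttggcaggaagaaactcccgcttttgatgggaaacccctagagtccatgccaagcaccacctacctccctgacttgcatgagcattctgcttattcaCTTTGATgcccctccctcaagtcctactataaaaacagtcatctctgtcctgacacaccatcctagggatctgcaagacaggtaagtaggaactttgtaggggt
Aqp1 (chr6:55336049-55336348, plus strand): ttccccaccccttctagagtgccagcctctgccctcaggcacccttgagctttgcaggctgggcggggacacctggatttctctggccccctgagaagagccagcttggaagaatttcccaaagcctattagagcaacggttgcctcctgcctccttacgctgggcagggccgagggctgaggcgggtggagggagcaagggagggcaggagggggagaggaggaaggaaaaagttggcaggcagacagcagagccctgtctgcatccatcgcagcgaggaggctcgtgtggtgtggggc
Hopx (chr5:77115074-77115373, minus strand): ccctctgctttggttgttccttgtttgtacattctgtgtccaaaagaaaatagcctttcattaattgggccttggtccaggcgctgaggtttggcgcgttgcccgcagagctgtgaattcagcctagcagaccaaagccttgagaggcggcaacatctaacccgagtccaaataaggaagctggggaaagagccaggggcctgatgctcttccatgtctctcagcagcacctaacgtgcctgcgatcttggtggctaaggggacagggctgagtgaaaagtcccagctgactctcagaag
Nrp2 (chr1:62703067-62703366, plus strand): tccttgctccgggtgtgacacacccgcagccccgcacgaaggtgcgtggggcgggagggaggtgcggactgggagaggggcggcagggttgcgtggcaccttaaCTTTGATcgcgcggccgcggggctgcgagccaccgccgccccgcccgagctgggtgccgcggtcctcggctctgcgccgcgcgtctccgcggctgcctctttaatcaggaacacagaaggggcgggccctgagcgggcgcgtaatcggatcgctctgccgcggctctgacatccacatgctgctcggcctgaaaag

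Reg3b and Reg3g shared an unbroken run of 29 bases, acagtcatctctgtcctgacacaccatcc, from position -20 to 9 around the start in both. Of 30 genes looked up, namely the 5 given markers and the called genes other than Vim and Retnlb, 21 had a promoter in the table, and Gsdmc2, Iglc2, Iglv2, Cd74, Zbp1, Trp53inp1, Ly6a, Ly6d and Stmn1 had no entry. On both strands, TTCNNNGAA occurred in 3 of the 21 (Reg3b at -129, Psmb8 at -97 and Nupr1 at -128), against 8.47% of all 27025 promoters. CTTTGAT occurred in 4 (Reg3g at -54, Nrp2 at -146, Fxyd3 at -206 and Acsm3 at 31), against 3.72% of all promoters. CAATAAA, a CDX2 motif, occurred in 2 (Hspb1 and Ly6c1), against 4.84%. The interferon-stimulated response element and CAAAGTCCA, an HNF4A motif, occurred in none, against 3.49% and 0.477%. Such matches describe the letters in these windows and no binding was measured.

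Few genes of antigen presentation and interferon response passed the test, while most had a higher level in the DSS members. Of 38 genes induced by interferon gamma or encoding parts of the antigen presentation machinery, 25 passed the filter on low counts. Of the 25, 3 (Cd74, Psmb8 and AW112010) rose, and the 25 had a median log2 fold change of 1.60 with none below 0, against 5221 of 10218 (51.1%) higher and a median of 0.01 over all genes tested. A gene could pass the filter through the DSS libraries alone, which favours such a direction. Counted over all 38 without the filter, the mean CPM was higher in DSS for 38, among them the 13 not tested, against 55.9% of the 20787 genes with a UMI. Their summed level was 2917 and 4004 CPM in the DSS libraries and 1914 and 2064 CPM in the controls. Of 33 genes of the type I interferon response, 22 were tested with a median log2 fold change of 0.78 and none below 0, and 1 (Zbp1) rose. Of the 31 outside the rule, the mean CPM was higher in DSS for 28 and lower for 3. Cells with 3 or more UMIs of Ifit1 with Ifit2 were left out by the rule, which limits this list.

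Psmb8, which encodes a subunit of the immunoproteasome that cuts peptides for display, stood at 93.7 and 140.2 CPM in DSS 1 and DSS 2, against 31.8 and 38.7 CPM in control 1 and control 2 (log2 fold change 1.76, SE 0.27, adjusted p = 0.0376, edgeR). AW112010, an interferon-induced transcript, had 116 and 310.3 CPM in the DSS libraries and 39.9 and 49.8 CPM in the controls (log2 fold change 2.27, SE 0.39, adjusted p = 0.0464, edgeR). Zbp1, a sensor of unusual nucleic acids, had 19.4 and 39.2 CPM in the DSS libraries and 3.67 and 8.30 CPM in the controls (log2 fold change 2.74, adjusted p = 0.0464, edgeR). For all 3 genes both DSS libraries exceeded both controls, and none kept its call without control 1 or control 2 or without the 7 mixed cells. Gbp2, a guanylate-binding protein gene, had 5.21 and 18.6 CPM in the DSS libraries and 0.350 and 0 CPM in the controls and did not pass (adjusted p = 0.0683, edgeR). Neither did Igtp, at 8.05 and 53.3 CPM in the DSS libraries and 3.85 and 0 CPM in the controls (adjusted p = 0.216, edgeR).

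Cd74, the invariant chain of MHC class II, stood at 191 and 102 CPM in DSS 1 and DSS 2, against 11.5 and 33.2 CPM in control 1 and control 2 (log2 fold change 3.24, SE 0.47, adjusted p = 0.0289, edgeR). The class II gene H2-Ab1 had 44.5 and 17.4 CPM in the DSS libraries and 4.02 and 8.30 CPM in the controls and did not pass (adjusted p = 0.0883, edgeR). H2-Aa had 37.4 and 13.7 CPM in the DSS libraries and 3.50 and 16.6 CPM in the controls and did not pass either (adjusted p = 0.363, edgeR), and reads of the H2 genes can be exchanged between similar copies. Cd74 is made at high levels by B cells and macrophages, and in all cells of a library together its level was 3113 and 836 CPM in the DSS libraries and 316 and 643 CPM in the controls. With the 7 mixed cells left out its log2 fold change was 2.32 (adjusted p = 0.0636, edgeR). At a thinned depth Cd74 was seen in 24.4% and 19.5% of members in the DSS libraries and 4.59% and 11.1% in the controls, against 80.9% or more of immune cells in every library.

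Among the called genes, the immunoglobulin genes Iglc2 and Iglv2 had the widest rise. The light chain gene Igkc had 6236 and 252 CPM in the DSS libraries and 112 and 836 CPM in the controls, so that its groups overlapped. Iglc2, a light chain constant gene of plasma cells (chromosome 16, 19198396 to 19200351), stood at 6225 and 2377 CPM in DSS 1 and DSS 2, against 1.40 and 5.53 CPM in control 1 and control 2 (log2 fold change 11.21, SE 0.81, adjusted p = 0.000179, edgeR). Iglv2 had 29.3 and 23.8 CPM in the DSS libraries and 0 and 0 CPM in the controls, at least 53.5-fold higher if the control group as a whole is set at 3 UMIs (adjusted p = 0.00423, edgeR). Single cells carried most of these transcripts, since the top 9 cells of DSS 1 held 96.8% of its Iglc2 UMIs and the top 12 cells of DSS 2 held 99.5%, and the highest cells held 7249 and 5825 UMIs, against 1 and 1 in control 1 and control 2. With the 7 mixed cells left out, Iglc2 did not pass (log2 fold change 6.27, adjusted p = 0.100, edgeR). In all cells together Iglc2 stood at 17264 and 2048 CPM in DSS 1 and DSS 2, against 58.0 and 269 CPM in control 1 and control 2. Without control 1 neither the Iglc2 nor the Iglv2 call held. Near-identical light chain genes share reads, so the single gene is uncertain.

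Immune and stromal markers mostly had a higher mean level in the DSS members. Of 29 immune markers, 7 were tested, 6 were higher in DSS and none passed. Their summed level was 16734 and 2004 CPM in the DSS libraries and 659 and 1616 CPM in the controls. Of the 26 outside the rule with a UMI, the mean CPM was higher in DSS for 22 and lower for 4. C1qa and C1qb were among those 4. Over all genes with a UMI, 55.9% were higher. Ptprc was at 0 by the rule, and the neutrophil genes S100a8 and S100a9 were at 0 in all 4 libraries. Igkc, whose groups overlapped, and Igha made up much of the sum. Igha had 7993 and 1224 CPM in the DSS libraries and 71.0 and 614 CPM in the controls. Jchain had 2336 and 490.2 CPM in the DSS libraries and 13.5 and 127 CPM in the controls. Among the members, the haemoglobin gene Hbb-bs was high in control 1 alone, at 7.57 and 0.808 CPM in the DSS libraries and 366 and 0 CPM in the controls. In all cells together it had 189 and 0.418 CPM in DSS 1 and DSS 2, and 401 and 0.518 CPM in control 1 and control 2. Both libraries numbered 1 thus held far more of it than those numbered 2, and the cause was not tested. Of 20 stromal markers, 13 passed the filter, with a median log2 fold change of 1.38 and none below 0, and of the 19 with a UMI 18 had a higher mean CPM in DSS and 1 a lower one. Stromal genes may have passed through the DSS libraries alone, and their summed level was 1012 and 872 CPM in the DSS libraries and 282 and 542 CPM in the controls. Vim, an intermediate filament gene of mesenchymal cells, was the single stromal marker past the threshold, at 32.7 and 61.4 CPM in the DSS libraries and 8.56 and 11.1 CPM in the controls (log2 fold change 2.34, SE 0.36, adjusted p = 0.0376, edgeR). Enteroendocrine markers summed to 57.8 and 251 CPM in the DSS libraries and 25.2 and 33.2 CPM in the controls, and 1 cell of DSS 2 held 330 Chgb UMIs. Of the 15 risers, 12 stood below the level of all cells together in DSS, and 5 of them were under 0.2 of it. The part of transcripts from other cells in the rise of Vim, Cd74, Ly6c1, Ly6d, Trp53inp1 and the interferon genes was not tested.

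Ly6c1 and Ly6d encode surface proteins of the Ly6 family, whose similar members may share reads. Ly6c1 had 10.4 and 21.0 CPM in the DSS libraries and 1.05 and 2.77 CPM in the controls (log2 fold change 3.61, SE 0.62, adjusted p = 0.0464, edgeR). Ly6d had 7.57 and 13.7 CPM in the DSS libraries and 0.175 and 0 CPM in the controls, a ratio of pooled UMIs of 66.3 with a counting interval of 11.4 to 2670.3, since the controls held 1 UMI (adjusted p = 0.0376, edgeR). Both are low counts, and their calls held in 5 of 15 and 4 of 13 alternatives.

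Among the risers were 3 genes known to be induced by stress, which were put together after their values were seen. In the list of the unfolded protein response none of 18 tested genes passed, and in that of immediate early and stress genes 1 of 21 (Hspb1) did. Nupr1, a small nuclear protein induced by many stresses, stood at 355 and 381 CPM in DSS 1 and DSS 2, against 143 and 116 CPM in control 1 and control 2 (log2 fold change 1.47, SE 0.25, adjusted p = 0.0464, edgeR). Hspb1, a small heat shock protein gene, had 32.7 and 52.1 CPM in the DSS libraries and 9.96 and 11.1 CPM in the controls (log2 fold change 2.01, SE 0.33, adjusted p = 0.0431, edgeR). Trp53inp1, a target of the tumour suppressor p53, had 36.0 and 28.7 CPM in the DSS libraries and 6.64 and 5.53 CPM in the controls (log2 fold change 2.26, SE 0.36, adjusted p = 0.0394, edgeR), with a UMI in 26 of 86 and 40 of 118 members of the DSS libraries and 32 of 305 and 2 of 18 of the controls. The 2 groups did not overlap for any of the 3 genes. The top 9 cells of DSS 1 held 77.6% of its Trp53inp1 UMIs and the top 12 cells of DSS 2 held 57.7%. In all cells together Trp53inp1 stood at 237 and 97.6 CPM in the DSS libraries and 40.8 and 97.8 CPM in the controls. The log2 fold change of Trp53inp1 was 1.45 without the 7 mixed cells (adjusted p = 0.400, edgeR), and its calls held in 6 of 16 alternatives, those of Nupr1 in 6 of 16 and those of Hspb1 in 4 of 15, none of them without control 1.

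**Figure D3:**
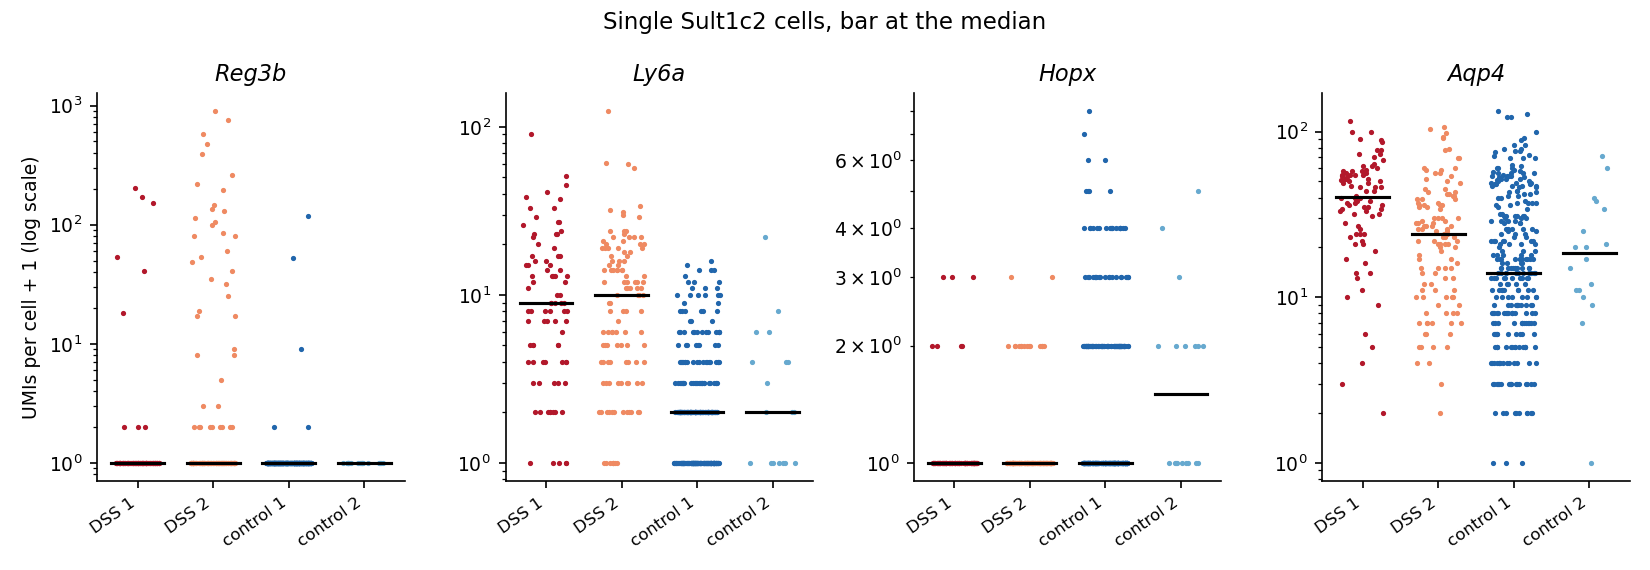
UMIs per member cell + 1, on a log axis, for Reg3b, Ly6a, Hopx and Aqp4 in DSS 1, DSS 2, control 1 and control 2, with 1 point per cell and a bar at the median. Ly6a is shifted in most DSS cells (medians of 8, 9, 1 and 1 UMIs), whereas Reg3b is high in a minority of them and Hopx is at 0 in most cells of both DSS libraries.

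Among the genes that fell, Aqp1, Hopx and Nrp2 were the most stable. Aqp1, a water channel gene (chromosome 6, 55336432 to 55348555), stood at 3.79 and 4.04 CPM in DSS 1 and DSS 2, against 28.7 and 44.3 CPM in control 1 and control 2 (log2 fold change -3.08, SE 0.39, adjusted p = 0.0115, edgeR). Hopx, an atypical homeodomain protein gene known from slow-cycling intestinal cells (chromosome 5, 77086988 to 77115121), stood at 4.73 and 7.27 CPM in DSS 1 and DSS 2, against 36.4 and 41.5 CPM in control 1 and control 2 (log2 fold change -2.66, SE 0.34, adjusted p = 0.0115, edgeR). Nrp2, a co-receptor for semaphorins and vascular growth factors (chromosome 1, 62703285 to 62818695), stood at 38.8 and 44.9 CPM in DSS 1 and DSS 2, against 139 and 207 CPM in control 1 and control 2 (log2 fold change -1.99, SE 0.25, adjusted p = 0.0115, edgeR). In each of the 3 genes both DSS libraries lay below both controls. Their calls held in 10 of 16 alternatives each and, among the libraries left out, were lost without control 1 (adjusted p = 0.446, 0.604 and 0.212, edgeR) and without DSS 1 (0.0797, 0.102 and 0.183), and that of Nrp2 also without DSS 2 (0.0933). Their log2 fold changes ranged over -3.39 to -2.45, -2.99 to -2.48 and -2.22 to -1.78 across the alternatives.

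Cell by cell, Aqp1 had a UMI in 6 of 86 and 7 of 118 members of the DSS libraries, against 99 of 305 and 7 of 18 members of the controls. Nrp2 had a UMI in 30 and 57 members of the DSS libraries, against 236 and 12 of the controls. Hopx had one in 7 and 16 members of the DSS libraries, against 120 and 9 of the controls. At full depth these were 8.14% and 13.6% of members in the DSS libraries and 39.3% and 50% in the controls. At a thinned depth of 5000 UMIs Hopx was seen in 0% and 4.24% of members in the DSS libraries and in 17.7% and 27.8% in the controls. The 0 of 86 cells of DSS 1 allows up to 3.49% of cells with a UMI at that thinned depth and sets no limit on cells that express Hopx. Immune cells, some of which express Hopx, showed it in 10.3% and 9.65% in the DSS libraries and 11.5% and 3.64% in the controls, so the DSS members lay below the immune cells of their own libraries and the control members above.

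Of the genes of stem cells and division, 4 fell in the DSS members. Axin2, which is switched on by Wnt signals and restrains them, had 1.42 and 0 CPM in the DSS libraries and 17.0 and 11.1 CPM in the controls. The 3 UMIs of DSS against the pooled control counts gave a ratio of 0.0394 with a counting interval of 0.00799 to 0.118 (adjusted p = 0.0464, edgeR). Hells, a chromatin remodelling gene of replicating cells, had 2.37 and 3.23 CPM in the DSS libraries and 19.2 and 41.5 CPM in the controls (log2 fold change -3.16, SE 0.49, adjusted p = 0.0376, edgeR), and Stmn1, which encodes a regulator of microtubules, had 54.4 and 50.5 CPM in the DSS libraries and 133 and 147 CPM in the controls (log2 fold change -1.40, SE 0.24, adjusted p = 0.0464, edgeR). For these 3 genes the groups did not overlap. Of 32 genes of proliferation, 19 were tested with a median log2 fold change of -1.04 and none above 0, and 2 (Hells and Stmn1) fell. A gene could pass the filter through the controls alone. Over all 28 outside the rule, the mean CPM was higher in DSS for 7 and lower for 21, and of the 9 that were not tested it was higher for 7, so that the one direction of the tested genes does not hold for the whole list. The replication licensing genes Mcm3 and Mcm6 did not pass (adjusted p = 0.0768 for both, edgeR). Mcm3 had 2.84 and 4.85 CPM in the DSS libraries and 17.5 and 55.3 CPM in the controls, and Mcm6 had 4.73 and 12.5 CPM in the DSS libraries and 30.4 and 52.6 CPM in the controls. The rule kept cycling cells out of both groups, so these counts describe the low levels left in cells under that limit. Of 21 genes of stem cells and Wnt signalling, 15 were tested, 12 of them lower and 3 higher with a median of -0.65, and 2 (Axin2 and Hopx) fell, against 48.9% lower over all genes tested. Over the 17 outside the rule with a UMI, the mean CPM was lower in DSS for 15.

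The remaining fallers had varied roles. Lsr, a lipoprotein receptor of tricellular junctions, had 13.3 and 4.44 CPM in the DSS libraries and 44.6 and 83.0 CPM in the controls (log2 fold change -2.70, SE 0.47, adjusted p = 0.0464, edgeR). Sord, the sorbitol dehydrogenase gene, had 21.3 and 18.6 CPM in the DSS libraries and 61.4 and 113 CPM in the controls (log2 fold change -1.99, adjusted p = 0.0376, edgeR). Both were lower in DSS 1 and DSS 2 than in either control. Fxyd3, a regulator of the sodium pump, had 29.3 and 32.3 CPM in the DSS libraries and 106 and 96.8 CPM in the controls (log2 fold change -1.75, adjusted p = 0.0285, edgeR). Hmga2, a chromatin protein gene of immature cells, had 10.4 and 15.4 CPM in the DSS libraries and 43.5 and 38.7 CPM in the controls (log2 fold change -1.73, adjusted p = 0.0464, edgeR). Siva1, a gene of cell death, had 24.6 and 20.6 CPM in the DSS libraries and 63.3 and 71.9 CPM in the controls (log2 fold change -1.56, adjusted p = 0.0464, edgeR). Retnlb, a goblet cell product with antibacterial action, had 38.8 and 49.7 CPM in the DSS libraries and 146 and 105 CPM in the controls (log2 fold change -1.57, SE 0.27, adjusted p = 0.0464, edgeR). The other 3 goblet markers tested, Reg4, Ang4 and Creb3l1, had log2 fold changes of -4.00, -1.17 and -0.08 and did not pass (edgeR). Of the 10 goblet markers outside the rule, the mean CPM was lower in DSS for 6 and higher for 4. The 17 goblet markers together, those of the rule included, had summed levels of 1254 and 1463 CPM in the DSS libraries and 1616 and 1571 CPM in the controls. In Lsr, Sord, Fxyd3, Hmga2, Siva1 and Retnlb both DSS libraries lay below both controls, and none kept its call without control 1. Of the 12 fallers, 4 stood below the level of all cells together in control. Retnlb was among them, since all cells together held 896 and 329 CPM in the DSS libraries and 2644 and 752 CPM in the controls. Without the limits on injury, interferon, surface, stem and cycling genes its log2 fold change was -0.23. The part of goblet cell transcripts in the fall of Retnlb was not tested. Except for Nrp2 and Retnlb, every faller was higher in crypt base cells than in members in both controls. Control 1 and control 2 base cells had Aqp1 at 108 and 160 CPM, Hopx at 158 and 141, and Lsr at 166 and 241. Nrp2, at 111 and 153 CPM, was lower there than in members. No crypt base cell was found in the DSS libraries. The part of such cells or their transcripts in these falls was not tested.

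Other gene groups held few calls. Over all genes tested, 51.1% were higher and 48.9% lower in DSS, and 0.264% were called, which is the background of the counts that follow. Of 26 antimicrobial and acute phase genes, 19 were tested, 14 were higher in DSS with a median log2 fold change of 0.49, 2 (Reg3b and Reg3g) rose and 1 (Retnlb) fell. Of 30 genes of sulfation and detoxification, 28 were tested, 24 were lower in DSS with a median log2 fold change of -0.39, and none passed (edgeR). Ces1f, a carboxylesterase gene, had 13.7 and 10.1 CPM in the DSS libraries and 35.1 and 44.3 CPM in the controls (adjusted p = 0.0748, edgeR), and Cyp2c55, a cytochrome P450 gene, had 56.8 and 79.6 CPM in the DSS libraries and 129.7 and 141 CPM in the controls (adjusted p = 0.179, edgeR). Of 7 gasdermin genes, 5 were tested, 3 were higher with a median of 0.22 and none passed (edgeR), and Gsdmc4 had 2115 and 1234 CPM in the DSS libraries and 1364 and 1441 CPM in the controls. Of 30 genes of fatty acid use and ketone synthesis, 29 were tested with a median of -0.04, and single values lay between -0.36 and 0.31. Of 28 ion and water transport genes, 22 were tested with a median of 0.01, and Aqp1 alone fell. Slc12a2, the chloride carrier of secreting crypt cells, had 132 and 256 CPM in the DSS libraries and 418 and 476 CPM in the controls and did not pass (adjusted p = 0.171, edgeR).

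In the list of 24 genes of regenerating epithelium, 16 of 17 tested were higher with a median of 0.69, and Ly6a alone rose. The median lay between -0.01 and 0.84 over the alternatives and was at its lowest without control 1. Of the 21 genes with a UMI, the mean CPM was higher in DSS for 16 and lower for 5. Anxa3, an annexin gene, had 214 and 154 CPM in the DSS libraries and 89.0 and 94.1 CPM in the controls (adjusted p = 0.253, edgeR). Ly6e had 223 and 276 CPM in the DSS libraries and 122 and 130.0 CPM in the controls (adjusted p = 0.160, edgeR). In both genes the DSS libraries lay above both controls without passing the threshold. Clu, which marks injury-induced stem cells, was low, at 7.57 and 7.68 CPM in the DSS libraries and 4.02 and 5.53 CPM in the controls. Of 22 genes of cholesterol synthesis, 19 of 21 tested were higher with a median of 0.44, and of 19 genes of the unfolded protein response 16 of 18 with a median of 0.45, none past the threshold. Of 30 genes of NF-kB and cytokine response, 16 of 19 tested were higher with a median of 0.32. Medians of the lists for hypoxia, redox defence, junctions, surface maturation and immediate early response lay between 0.01 and 0.21, with 1 call among them, that of Hspb1. The 12 transcripts of mitochondrial DNA had a median of -0.10.

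**Figure D4:**
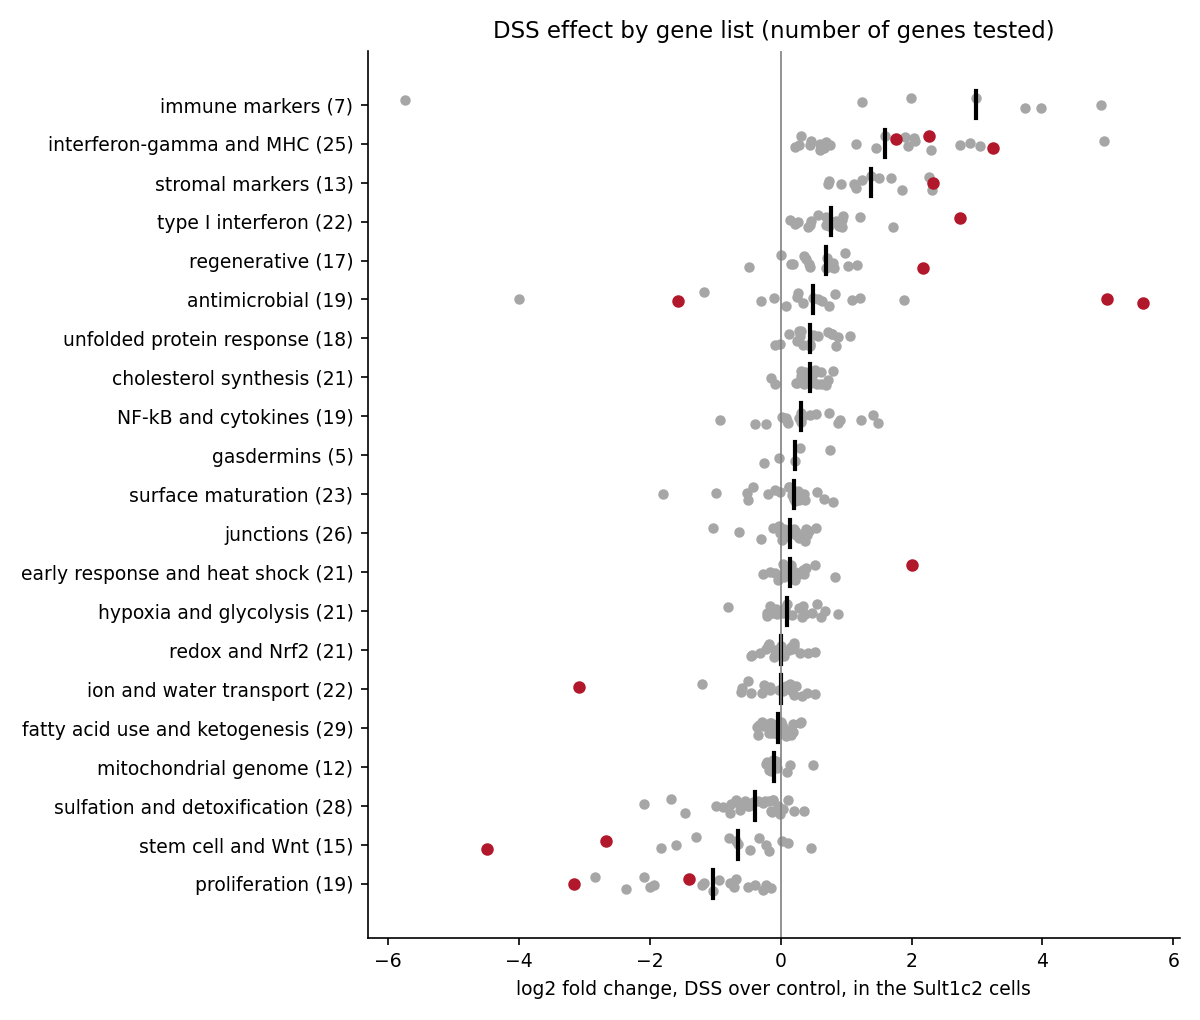
Log2 fold change of DSS over control in the Sult1c2 positive cells for each tested gene of 21 lists, with 1 point per gene and a black bar at the median. Red points passed an adjusted p under 0.05 in edgeR and grey points did not. Genes dropped by the filter on low counts are not drawn. The tested genes of the interferon gamma, type I interferon and stromal lists lie above 0 and those of the proliferation list below.

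The DSS effect was then set against that in Aqp8 surface colonocytes of the same libraries. A test of the difference between the effects, with library as a block, called 31 genes with a more positive effect in the Sult1c2 positive cells (0.28% of 11073 tested) and 25 with a more negative one (0.226%), or 0.506% together (edgeR). The metallothionein genes Mt1 and Mt2, whose products bind zinc and copper, were among those with a more negative effect. In the Sult1c2 positive cells Mt1 stood at 1229.8 and 2595 CPM in DSS 1 and DSS 2, against 1569 and 1732 CPM in control 1 and control 2. In surface colonocytes it stood at 1158 and 2051 CPM in DSS 1 and DSS 2, against 189 and 333 CPM in control 1 and control 2. In the surface cells both DSS libraries exceeded both controls, while in the Sult1c2 positive cells the groups overlapped (difference of log2 fold changes -2.27, SE 0.28, adjusted p = 0.00329, edgeR). In the Sult1c2 positive cells Mt2 had 159 and 575 CPM in the DSS libraries and 358 and 252 CPM in the controls, which overlapped. Surface colonocytes had 163 and 403 CPM in the DSS libraries and 31.1 and 54.6 CPM in the controls (difference -2.44, SE 0.38, adjusted p = 0.0188, edgeR). Reads of the 2 genes may be partly exchanged.

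Fabp2, which encodes an intestinal fatty acid binding protein, showed the opposite course. In the Sult1c2 positive cells it stood at 796 and 1132 CPM in DSS 1 and DSS 2, against 1227 and 786 CPM in control 1 and control 2, and the groups overlapped. In surface colonocytes it stood at 536 and 657 CPM in DSS 1 and DSS 2, against 2464 and 2760.1 CPM in control 1 and control 2, so that both DSS libraries lay far below both controls (difference 2.31, SE 0.30, adjusted p = 0.00460, edgeR). The differences of Mt1 and Fabp2 passed in all 8 alternatives, with ranges of -2.73 to -1.73 and 1.80 to 2.93. That of Mt2 passed in 7 of 8 and was lost without control 1 (-1.51, adjusted p = 0.0787, edgeR), and it was -3.15 without control 2.

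Trp53inp1 had a more positive effect in the Sult1c2 positive cells than in surface colonocytes (difference 2.38, SE 0.35, adjusted p = 0.0134, edgeR), where it had 56.3 and 63.2 CPM in the DSS libraries and 54.8 and 76.8 CPM in the controls. The same held for Hspb1 (2.32, SE 0.41, adjusted p = 0.0333, edgeR), which in surface colonocytes had 11.6 and 36.1 CPM in the DSS libraries and 27.5 and 13.5 CPM in the controls. For Kctd12, a gene of a GABA-B receptor subunit, the Sult1c2 positive cells had 50.6 and 43.6 CPM in the DSS libraries and 20.1 and 8.30 CPM in the controls (difference 1.98, SE 0.32, adjusted p = 0.0211, edgeR). Its levels in surface colonocytes were 66.6 and 76.8 CPM in the DSS libraries and 101 and 81.5 CPM in the controls. In surface colonocytes the DSS and control values of Trp53inp1 and of Hspb1 overlapped. The histone gene Hist1h4i had overlapping values in the Sult1c2 positive cells, at 30.8 and 33.1 CPM in the DSS libraries and 6.82 and 33.2 CPM in the controls. Surface colonocytes had 58.9 and 87.8 CPM in the DSS libraries and 149.7 and 112 CPM in the controls (difference 2.77, SE 0.50, adjusted p = 0.0333, edgeR). Gdf15, a secreted stress signal, had 12.3 and 81.6 CPM in the DSS libraries and 38.1 and 111 CPM in the controls among the Sult1c2 positive cells. Among surface colonocytes it had 67.3 and 126 CPM in the DSS libraries and 18.3 and 18.0 CPM in the controls (difference -2.75, SE 0.49, adjusted p = 0.0333, edgeR), with both DSS libraries above both controls. Rgcc, a regulator of the cell cycle, had 6.15 and 3.64 CPM in the DSS libraries and 10.5 and 38.7 CPM in the controls in the Sult1c2 positive cells (difference -2.87, SE 0.57, adjusted p = 0.0469, edgeR). The ephrin receptor gene Ephb2 had 26.0 and 37.6 CPM in the DSS libraries and 30.4 and 63.6 CPM in the controls there (difference -2.21, SE 0.40, adjusted p = 0.0333, edgeR). Without control 1 the differences of Trp53inp1, Hspb1, Kctd12, Hist1h4i, Rgcc and Ephb2 were lost (adjusted p of 0.0509 to 0.332, edgeR). Of these, Hist1h4i then had a difference of 0.995, Hspb1 one of 1.61, Trp53inp1 one of 3.32 and Kctd12 one of 3.11. Lost without control 2 were those of Gdf15, Rgcc and Ephb2 (adjusted p of 0.121 to 0.203, edgeR), and without DSS 2 that of Rgcc (-2.20, adjusted p = 0.0733, edgeR). The difference of Gdf15 ranged from -3.84 without DSS 2 to -2.02 without DSS 1. The count of calls was 417 without DSS 1, 303 without DSS 2, 18 without control 1 and 24 without control 2.

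Against the Aqp4 cells low in Sult1c2, the effects differed in few genes. The test called 10 genes with a more positive effect (0.0805% of 12424 tested) and 2 with a more negative one (0.0161%), or 0.0966% together (edgeR). Ly6a, Hopx and Nrp2, which passed in the Sult1c2 positive cells, were not among them (adjusted p = 0.923 for Ly6a and 1 for the other two, edgeR), and the log2 fold change of Ly6a in the Aqp4 cells was 1.74 (adjusted p = 0.179, edgeR). Aqp1, Axin2 and Lsr fell in the Aqp4 cells as well (log2 fold changes -3.03, -5.79 and -2.66, adjusted p = 0.0145, 0.00546 and 0.0271, edgeR). Besides Reg3b and Reg3g, Zbp1, Iglc2 and Iglv2 rose there too (2.11, 6.73 and 7.04, adjusted p = 0.0463, 0.00576 and 0.0333, edgeR). A gene that passes in one population and not in the other is not thereby shown to differ.

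Mt1 and Mt2 were the 2 genes with a more negative effect. In the Aqp4 cells Mt1 stood at 1803 and 2610.2 CPM in DSS 1 and DSS 2, against 991 and 771 CPM in control 1 and control 2, so that both DSS libraries exceeded both controls (difference -1.15, SE 0.20, adjusted p = 0.0206, edgeR). In the same cells Mt2 had 263 and 566 CPM in the DSS libraries and 231 and 122 CPM in the controls (difference -1.07, SE 0.21, adjusted p = 0.0424, edgeR). Mptx1, which encodes a pentraxin of the intestinal mucosa, had 1454 and 452 CPM in the DSS libraries and 1324 and 1173 CPM in the controls in the Sult1c2 positive cells. The Aqp4 cells had 302 and 154 CPM in the DSS libraries and 681 and 812 CPM in the controls (difference 1.19, SE 0.21, adjusted p = 0.0197, edgeR). DSS 2 was the lowest library for Mptx1 in both populations. The calls of Mt1 and Mptx1 held in 5 of 8 alternatives each and were lost without DSS 1, control 1 or control 2, and that of Mt2 held in 3 of 8.

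Emp1, a membrane protein gene of epithelia, had 144 and 189.5 CPM in the DSS libraries and 101 and 268 CPM in the controls in the Sult1c2 positive cells. The Aqp4 cells had 359 and 435 CPM in the DSS libraries and 426 and 1331 CPM in the controls (difference 0.95, SE 0.18, adjusted p = 0.0349, edgeR). Its groups overlapped in the Sult1c2 positive cells, and its call held in 2 of 8 alternatives and was lost when any library was left out. Rgs5, a gene of pericytes, had 71.5 and 10.5 CPM in the DSS libraries and 4.89 and 0 CPM in the controls in the Sult1c2 positive cells (2.77, SE 0.54, adjusted p = 0.0406, edgeR). It was found in 14 of 86 cells of DSS 1, where the top 9 cells held 96.7% of the UMIs, and its call held in 3 of 8 alternatives and was lost without DSS 1 (1.29, adjusted p = 1, edgeR), control 1 or control 2. Iglc2 had a difference of 4.21, SE 0.40, adjusted p = 2.2e-06 and Cd74 one of 1.11, SE 0.22, adjusted p = 0.0466 (edgeR). With the cells rich in immunoglobulin or chromogranin UMIs left out of both populations, the difference of Iglc2 was -0.0145 and that of Cd74 0.64, and neither passed. The count of calls was 22 without DSS 1, 50 without DSS 2, 1 without control 1 and 3 without control 2.

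**Figure D5:**
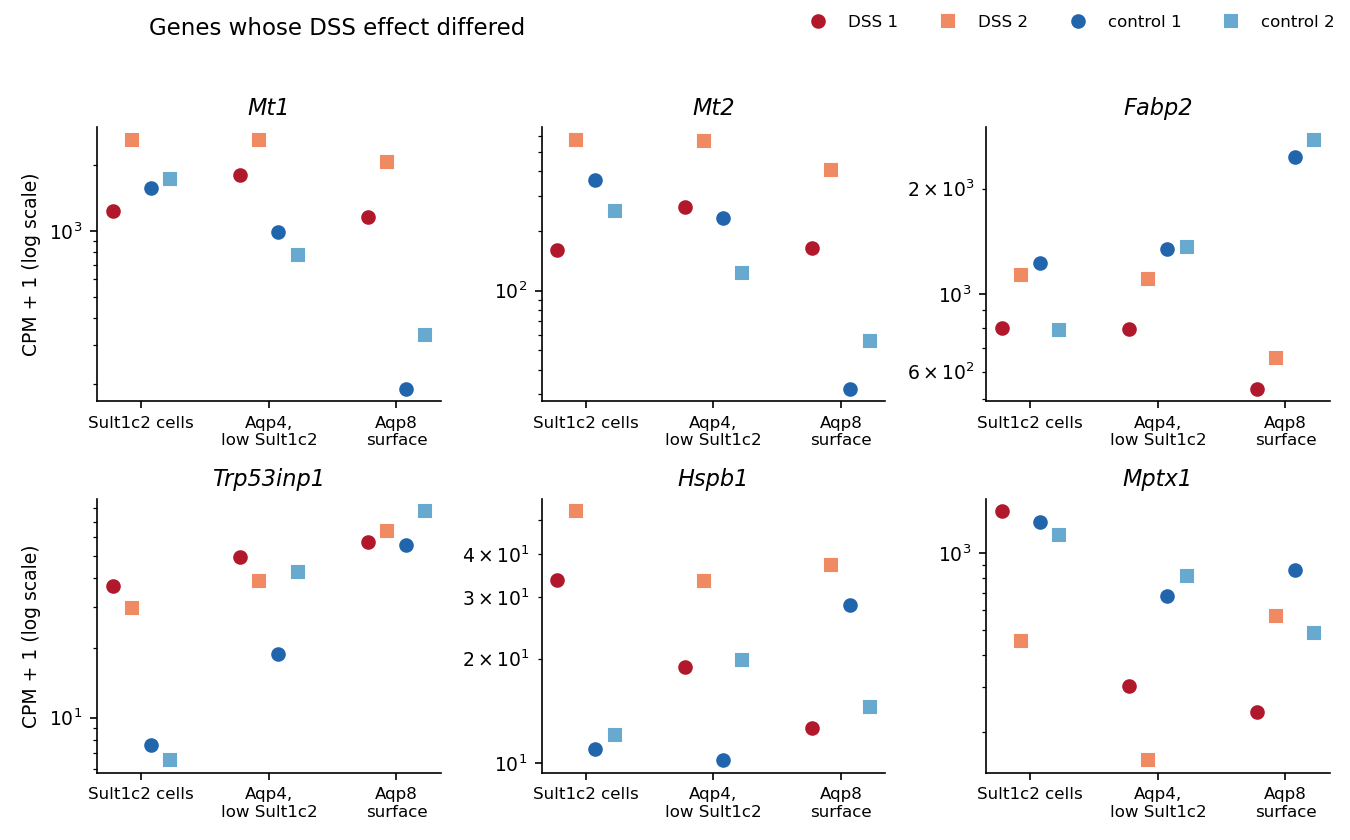
Levels of Mt1, Mt2, Fabp2, Trp53inp1, Hspb1 and Mptx1 in the Sult1c2 positive cells, Aqp4 cells low in Sult1c2 and Aqp8 surface colonocytes, in CPM + 1 on a log axis, with 1 point per library. The DSS and control points of Mt1 and Fabp2 are apart in surface colonocytes and overlap in the Sult1c2 positive cells.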

How the data were processed

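The authors deposited raw UMI counts for each gene and barcode, in 12 matrix, gene and barcode files for the 4 libraries. They were made with Cell Ranger 6.1.1 on GRCm38, per the submitters' processing notes, and its settings are not stated there. The deposited gene files hold 55450 entries, and positions were taken from GENCODE M21 of GRCm38. Capture and library construction carry different kit versions in the labels (3 and 2), which was not resolved.

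Cells were chosen by the rule given above, and counts were summed per library and population, since cells are not replicates. The members, gene lists and comparisons were chosen with earlier results of these data known. These sums entered the quasi-likelihood F test of edgeR 4.0.16 (two-sided, run in R 4.3.3) after filterByExpr and TMM scaling, with group alone in the model, and p-values were adjusted by Benjamini-Hochberg over all genes tested at a threshold of 0.05. Differences of the DSS effect between populations were tested as an interaction with library as a block. Log2 fold changes are DSS over control, SE is the standard error from the model, and a CPM is not scaled by TMM. DESeq2 1.42.0 was run as an alternative. The share of cells was tested with an exact permutation test in SciPy 1.17.1. Scrublet (scanpy 1.11.5), run on each library, predicted doublets, which were left in except in 1 alternative.

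Named genes were those past the threshold whose higher group averaged 20 CPM or more, with no overlap of groups and no place in the rule or the marker lists of other cell types, up to 12 per direction. For differences, up to 5 per direction, the groups were not to overlap in each library's log2 ratio of the 2 populations (CPM + 1), while the levels themselves could. The called genes outside this rule (Ly6c1, Ly6d, Axin2, Vim and Retnlb), and Clu, were named after their values were seen. From each list, genes were named among those with the largest changes. On simulated counts for 10218 genes at these depths, edgeR recovered 96 of 100 genes changed 4-fold and 100 of 100 changed 16-fold, with 14 false calls. The changed genes were drawn from those averaging at least 20 CPM, so recovery of lower genes was not tested. Motifs were searched on both strands of RefSeq promoters.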

Additional observations from a re-analysis of the deposited data

Results flagged for a closer look

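The DSS effect differed between the Sult1c2 positive cells and another epithelial population of the same libraries in the genes listed here, by edgeR's test of the difference itself. Against Aqp8 surface colonocytes the difference of log2 fold changes was more positive for Hist1h4i at 2.77 (SE 0.50, adjusted p = 0.0333), Trp53inp1 at 2.38 (SE 0.35, adjusted p = 0.0134) and Hspb1 at 2.32 (SE 0.41, adjusted p = 0.0333). It was 2.31 (SE 0.30, adjusted p = 0.00460) for Fabp2 and 1.98 (SE 0.32, adjusted p = 0.0211) for Kctd12. More negative differences were those of Rgcc at -2.87 (SE 0.57, adjusted p = 0.0469), Gdf15 at -2.75 (SE 0.49, adjusted p = 0.0333) and Mt2 at -2.44 (SE 0.38, adjusted p = 0.0188). Mt1 followed at -2.27 (SE 0.28, adjusted p = 0.00329) and Ephb2 at -2.21 (SE 0.40, adjusted p = 0.0333). All are edgeR values.

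Against Aqp4 cells low in Sult1c2, positive differences in edgeR were those of Iglc2 at 4.21 (SE 0.40, adjusted p = 2.2e-06), Rgs5 at 2.77 (SE 0.54, adjusted p = 0.0406) and Mptx1 at 1.19 (SE 0.21, adjusted p = 0.0197). Cd74 had 1.11 (SE 0.22, adjusted p = 0.0466) and Emp1 had 0.95 (SE 0.18, adjusted p = 0.0349). Negative ones were those of Mt1 at -1.15 (SE 0.20, adjusted p = 0.0206) and Mt2 at -1.07 (SE 0.21, adjusted p = 0.0424), again from edgeR. Mt1 and Mt2 thus stood out against both populations. No group held enough libraries for a search for outlying samples.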

How the results depend on the processing

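Control 2 rests on 18 cells and limits every comparison with the controls, and the crypt base could be compared in the controls alone. For the DSS effect in the Sult1c2 positive cells (27 calls in edgeR), the count was 215 without a filter on low counts, 3 with Sult1c2 at 3 UMIs, 0 with Sult1c2 at 1 UMI, 0 without the exclusions, 6 with at most 10% mitochondrial UMIs, 1 with cells thinned to 2000 UMIs (208 genes tested), 5 thinned to 10000 UMIs and 4 without the 7 mixed cells, where 588 genes had an unadjusted p under 0.05. The last 2 of these were chosen after seeing the data. With 1 library left out the count ranged from 0 to 50, and the lone remaining sample of a group was then assumed to vary like the other group. The other alternatives gave 26 to 37 calls. With a replicate block the count was 234, but the numbers share no stated pairing, and the differences between replicate 1 and 2 in DSS and in control correlated at r = 0.175 over genes.

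The difference from surface colonocytes (56 calls) gave 37 with DESeq2 size factors, 182 with DESeq2, 137 without a filter, 18 to 417 with 1 library left out and 236 without mixed cells. That from Aqp4 cells (12 calls) gave 6 with DESeq2 size factors, 4 with DESeq2, 42 without a filter and 1 to 50 with 1 library left out. The cause of these shifts was not tested. Of 939 values of named genes under alternatives, 655 kept direction and side of the threshold, 277 lost the threshold and 7 changed sign. These were the difference of Iglc2 from Aqp4 cells, at -0.0145 without the mixed cells, and the uncalled effects of Gsdmc2 (-0.30 to 0.60 with 1 library left out, negative without DSS 1, and -0.0199 without the exclusions) and Gsdmc3 (-0.32 to 0.20 with 1 library left out, positive without DSS 2 or control 2, 0.0181 with Sult1c2 at 3 UMIs and 0.24 at 1 UMI). The difference in share ranged from -1.65 to 3.61 percentage points with 1 library left out, negative without DSS 1 or control 2, and from 0.0539 to 2.80 in the other alternatives. Of 380 list medians, 41 changed sign, none of them for the interferon, proliferation or stem cell lists.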
